A study of Homo sapiens with 6 samples.

Results

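The 71 genes described here encode the matrix metalloproteinases, the ADAM and ADAMTS metalloproteinases, the ADAMTS-like proteins and the tissue inhibitors of metalloproteinases (TIMP). They were picked by symbol from the protein-coding rows of the deposited gene table and comprise 23 MMP, 20 ADAM, 19 ADAMTS, 5 ADAMTSL and 4 TIMP genes among 46427 genes, of which 19672 are protein-coding. A further 3 pseudogene rows with such symbols were left out. The cells were MDA-MB-231, a human line from a metastatic breast cancer whose genotype the labels give as WT, and their RNA was sequenced. In 3 cell preparations the cells received control-siRNA, and in the other 3 they received TAZ-siRNA, a reagent sold as siGENOME human WWTR1 siRNA, delivered with DharmaFECT4. WWTR1 is the gene for TAZ, a transcriptional coactivator that works through TEAD factors on DNA, and the study asked how its loss changes genes of metastasis and cell motility. All libraries come from 1 cell line in low glucose medium and 1 TAZ-siRNA reagent was used, so the loss of TAZ and other effects of that reagent cannot be told apart. The labels give neither the dose nor the time of the transfection for these libraries. The study calls the samples cell preparations without saying that the cultures were separate. The p-values therefore measure the spread between these samples, which may be technical.

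Matrix metalloproteinases are zinc-dependent enzymes, secreted or anchored in the membrane, that cut collagens and other matrix proteins and are made as inactive precursors. ADAM proteins are membrane-anchored, and those with an active protease release growth factors, cytokines and adhesion molecules from the cell surface, while ADAMTS enzymes are secreted and cut proteoglycans, procollagens and fibrillin-rich matrix. The TIMP proteins bind the active site of these enzymes and block it, and breast cancer cells that invade collagen are known to use membrane-type MMPs for it.

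The promoter windows of 3 genes are printed for description. Of the genes that passed the test, ADAMTS6 had the largest fall, ADAM19 the largest rise, and MMP14 was the most abundant protease gene that rose. Each window runs from 250 bases before to 50 bases after the start of transcription, 5′ to 3′ on the gene's own strand, as RefSeq gives it for GRCh38.p14. They lie at chr5:65481871-65482170 on the minus strand (ADAMTS6), chr5:157575726-157576025 on the minus strand (ADAM19) and chr14:22836335-22836634 on the plus strand (MMP14). Capitals mark the letters GGAATG, the core that TEAD factors are known to bind.
ADAMTS6: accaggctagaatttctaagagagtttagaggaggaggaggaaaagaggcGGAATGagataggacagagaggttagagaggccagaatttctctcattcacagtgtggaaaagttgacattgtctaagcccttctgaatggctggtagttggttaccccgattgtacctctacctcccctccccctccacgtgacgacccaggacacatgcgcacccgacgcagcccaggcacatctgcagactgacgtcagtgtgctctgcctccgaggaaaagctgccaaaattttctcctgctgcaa
ADAM19: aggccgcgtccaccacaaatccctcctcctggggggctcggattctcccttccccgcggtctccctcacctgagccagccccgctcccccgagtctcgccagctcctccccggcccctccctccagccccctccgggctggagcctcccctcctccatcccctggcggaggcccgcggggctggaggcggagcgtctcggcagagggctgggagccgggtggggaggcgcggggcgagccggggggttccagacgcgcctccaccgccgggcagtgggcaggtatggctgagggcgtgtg
MMP14: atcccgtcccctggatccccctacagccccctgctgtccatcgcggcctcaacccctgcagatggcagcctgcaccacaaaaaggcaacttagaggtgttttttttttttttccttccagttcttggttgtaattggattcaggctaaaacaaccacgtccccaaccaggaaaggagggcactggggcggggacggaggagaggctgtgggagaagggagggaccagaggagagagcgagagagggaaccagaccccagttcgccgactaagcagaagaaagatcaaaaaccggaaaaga
The ADAMTS6 window holds GGAATG once, beginning 200 bases before the RefSeq start used here, and the windows of ADAM19 and MMP14 hold it on neither strand. The ADAMTS6 window lies wholly inside the span of the deposited gene given below, which begins further upstream. Its match is therefore not placed relative to the outermost start of the gene that was measured. The G and C content of the windows was 52.0% for ADAMTS6, 75.7% for ADAM19 and 55.0% for MMP14. RefSeq windows were matched to 44 of the 71 genes, and 5 of them (11.4%) held GGAATG on either strand, against 3836 of 27305 promoters of the same length (14.0%). The other 4 were ADAM17, ADAMTS12, ADAMTS13 and ADAMTS20, none of which passed the test described below. The AP-1 letters TGANTCA, searched on both strands, stood in 4 of the 44 windows (9.09%), those of MMP7, MMP10, MMP20 and ADAMTS12, against 7.76% of all promoters. Of the 8 matched genes that passed the test below, 1 held GGAATG and 0 held TGANTCA. MMP2, MMP13, MMP16, TIMP2, ADAMTS9 and ADAMTS16 passed the test but had no matched window, so their promoters were not searched. MMP1, MMP3 and MMP9 had no matched window either. In the window of ADAMTS12, which held both, the matches did not overlap. A match describes letters in a window and is not a measured binding site.

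The deposited counts summed to between 48307548 and 71749634 per library, and 3 counts, taken as the floor of detection, were worth 0.0411 to 0.0618 CPM, a scale on which each library has the same normalized size. This floor covers counting error only. WWTR1 itself lay between 189.7 and 192.4 CPM in the controls and between 15.1 and 17.3 CPM with TAZ-siRNA, or 8.64% of control, a log2 fold change of -3.53 (standard error, SE, of 0.0613; adjusted p = 2.47e-10 in edgeR's quasi-likelihood test). TAZ-siRNA replicate 3 had the lowest median correlation with its own group, 0.994, against 0.995 to 0.997 for the other libraries. Of the markers of epithelial cells, which the labels name, the keratins KRT8 (585 to 606 TPM in controls, 602 to 619 with TAZ-siRNA) and KRT18 (832 to 882 and 770.3 to 844 TPM) were high with overlapping groups. The keratin KRT19 did not overlap, at 98.3 to 100.2 TPM in controls and 125 to 144 TPM with TAZ-siRNA, whereas the adhesion genes CDH1 (0.0146 to 0.252 TPM) and EPCAM (1.14 to 2.25 TPM) were near 0. Of the mesenchymal markers, VIM stood at 3611 to 3922 TPM with overlapping groups, and CDH2 at 0 to 0.227 TPM. FN1 was higher without overlap, at 246 to 262 TPM in controls and 268 to 307 TPM with TAZ-siRNA. ZEB1 was too, at 31.3 to 32.1 and 32.4 to 36.1 TPM. Of the luminal breast markers, ESR1 (at most 0.0295 TPM) and PGR (at most 0.00504 TPM) were near 0. ERBB2 overlapped, at 19.7 to 21.7 and 20.6 to 30.2 TPM. GATA3 was lower without overlap, at 6.15 to 7.62 and 4.61 to 5.47 TPM. Among markers of other cell types, the leukocyte gene PTPRC was listed at 0 in every library, and the endothelial gene PECAM1 lay at 1.37 to 2.08 TPM in control libraries, overlapping 1.53 to 2.67 TPM in TAZ-siRNA libraries. Both fibroblast markers were higher with TAZ-siRNA in every library, PDGFRB at 7.05 to 7.64 against 5.03 to 5.69 TPM and COL1A1 at 3.39 to 4.08 against 2.43 to 2.83 TPM. The part of these markers in the results below was not tested. In bulk RNA, fewer cells of a type and less RNA per cell cannot be told apart.

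With TAZ-siRNA, 14 of the 47 genes that could be tested passed an adjusted p under 0.05 (29.8%), where 22.1% of all 16966 genes tested did so. They were 12 genes that rose (25.5%, against 11.9% of all genes) and 2 that fell (4.26%, against 10.2%). The risers were the inhibitors TIMP2, TIMP3 and TIMP4, the metalloproteinases MMP2, MMP11, MMP13, MMP14 and MMP16, the membrane proteins ADAM8, ADAM19 and ADAM22, and ADAMTS9. ADAMTS6 and ADAMTS16 fell. The median log2 fold change of the 47 genes was 0.17, against -0.0054 for all genes tested, with 29 genes positive and 18 negative. In CPM, the groups did not overlap for 22 of the 47 genes (46.8%), against 39.6% of all genes, and the 14 genes past the test were among these. TAZ-siRNA was above without overlap in 14 of the 47 (29.8%, against 20% of all genes) and below in 8 of the 47 (17.0%, against 19.6%). With 3 libraries against 3, an exact permutation test (2-sided) cannot go below p = 0.1, and each of the 14 stood at that value. Changes were moderate in size: 7 of the 14 reached 1.5-fold and 3 reached 2-fold. When the libraries were left out singly, 11 of the 14 passed in all 6 fits, and the exceptions are given beside their values.

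**Figure D1:**
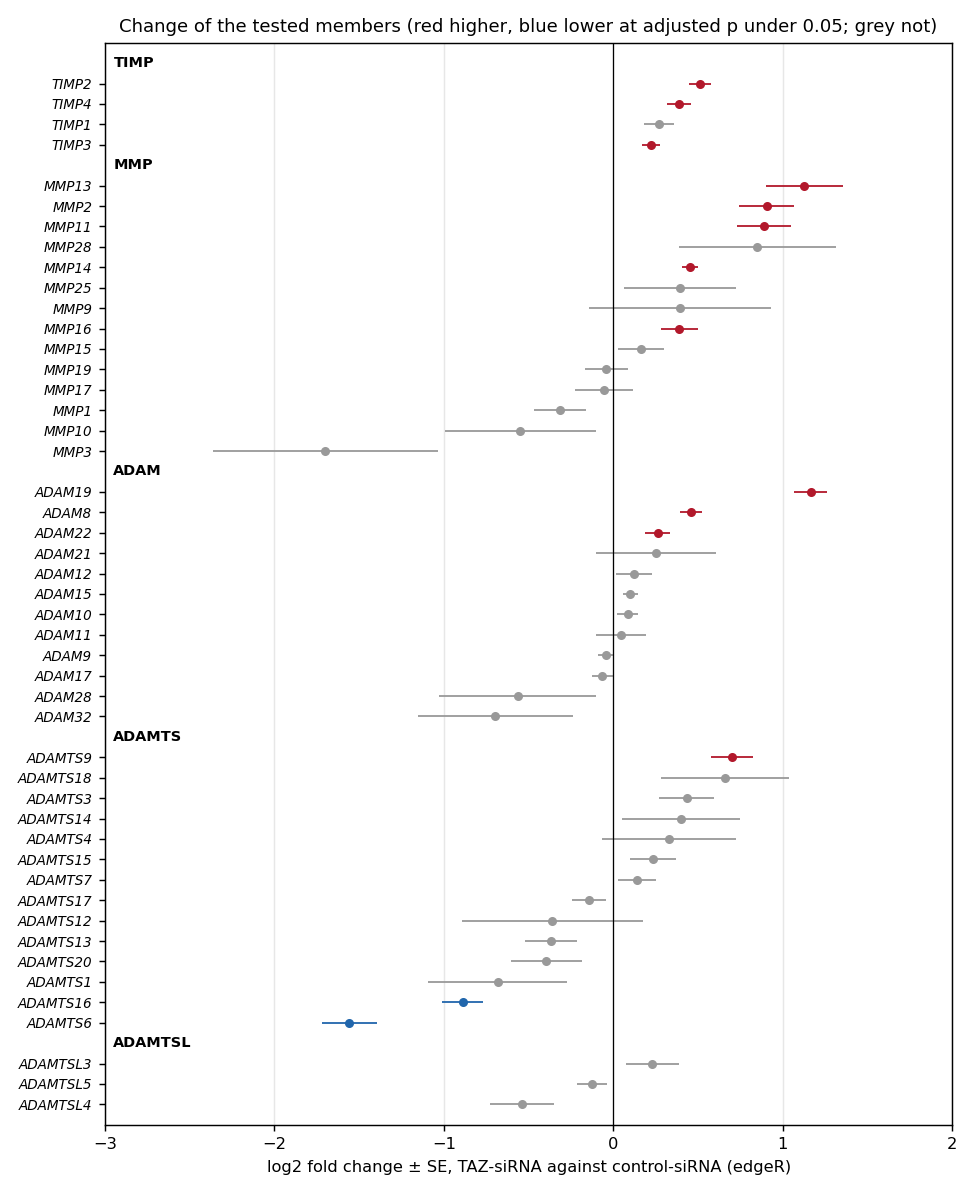
Log2 fold change of the 47 tested genes with TAZ-siRNA against control-siRNA, with bars for the standard error of the edgeR fit, by family. Red points rose and blue points fell at an adjusted p under 0.05, and grey points did not pass; all 4 TIMP genes lie to the right of 0.

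The genes differed widely in level. Levels are compared between genes in TPM, which allows for transcript length. Averaged over the 6 libraries, TIMP1 led with 322 TPM, followed by ADAM9 (133), TIMP2 (117), MMP14 (103), ADAM15 (92.7), ADAM17 (67.5), ADAM10 (50.8), TIMP3 (41.0), TIMP4 (40.8) and ADAM8 (27.6). Neighbours in this order often did not differ beyond their spread: with control-siRNA, ADAM15 (87.4 ± 1.82 TPM, SD, n = 3) and MMP14 (85.1 ± 1.06 TPM, SD, n = 3) were close, as were TIMP3 (37.1 ± 3.10 TPM, SD, n = 3) and TIMP4 (34.6 ± 1.83 TPM, SD, n = 3). By contrast, 43 of the 71 genes had a mean below 1 TPM. The cells thus held 4 inhibitor genes and 6 ADAM genes above 10 TPM but a single MMP gene, MMP14, and no ADAMTS gene. MMP14 alone made up 83.9% of the summed TPM of all MMP genes. This sum was 103.0 ± 0.475 TPM (SD, n = 3) with control-siRNA and 143.2 ± 11.3 TPM (SD, n = 3) with TAZ-siRNA. The summed TIMP level was 452 ± 13 TPM (SD, n = 3) against 591 ± 6.20 TPM (SD, n = 3), and the summed ADAM level was 376 ± 15.8 TPM (SD, n = 3) against 425 ± 25.9 TPM (SD, n = 3). For MMP, ADAM and TIMP alike, the 3 TAZ-siRNA sums lay above the 3 control-siRNA sums. No test was made on the sums, which follow their most abundant genes. TIMP1 made up 61.8% of the TIMP sum and ADAM9 33.2% of the ADAM sum, and neither gene passed the test. The summed ADAMTS level overlapped, at 13.7 ± 0.392 TPM (SD, n = 3) against 13.2 ± 1.27 TPM (SD, n = 3).

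**Figure D2:**
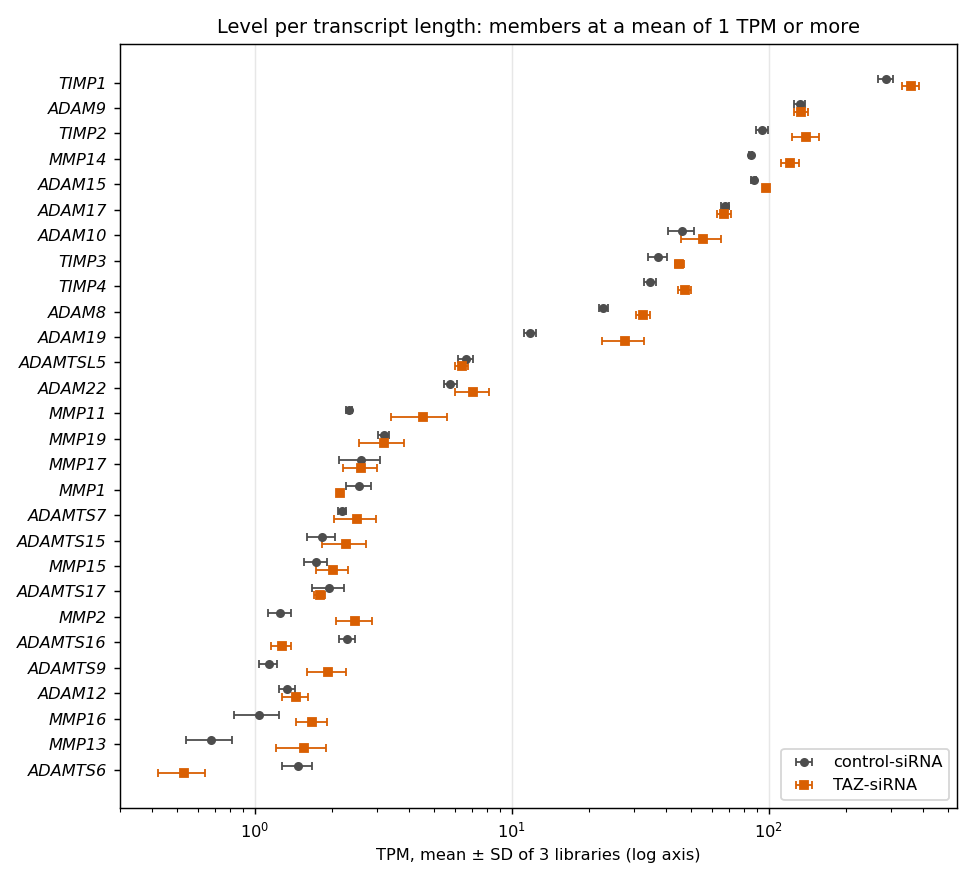
Mean TPM ± SD of 3 libraries per group, on a log axis, for the 28 genes with a mean of at least 1 TPM over all libraries. The inhibitors and the membrane proteases fill the top of the order, from TIMP1 at 322 TPM to ADAM19 at 19.7 TPM, and ADAMTS6 at the bottom shows the widest gap between the groups.

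The 4 inhibitors were higher with TAZ-siRNA in every library (100% without overlap, against 20% of all genes with TAZ-siRNA above). Of the 4, 3 passed the test (75%, against 11.9% of all genes called higher). TIMP2, which blocks MMPs and at the same time helps MMP14 to activate the MMP2 precursor, measured 162, 160.5 and 154 CPM in replicates 1 to 3 of control-siRNA and 231, 242 and 205 CPM in replicates 1 to 3 of TAZ-siRNA. The groups were far apart, with replicate 3 the lowest of each. This was a log2 fold change of 0.51 (SE 0.0634, adjusted p = 0.000512 in edgeR's quasi-likelihood test), or 1.43-fold, and with each library left out it stayed between 0.46 and 0.58. TIMP4 measured 17.7, 19.0 and 20.4 CPM against 23.9, 25.8 and 24.9 CPM, with no overlap and a log2 fold change of 0.39 (SE 0.0700, adjusted p = 0.00357 in the edgeR test). TIMP3, the inhibitor that binds to the matrix and also blocks ADAM17, measured 84.4, 76.2 and 74.7 CPM against 91.3, 91.3 and 92.0 CPM. The TAZ-siRNA libraries were nearly equal and the nearest control library, replicate 1, lay below them. Its log2 fold change was 0.22 (SE 0.0545, adjusted p = 0.0156 in the edgeR test), and the call was lost without control-siRNA replicate 2 (0.0884), control-siRNA replicate 3 (0.0791) or TAZ-siRNA replicate 1 (0.0545). TIMP1, the most abundant of all 71 genes, measured 96.0, 103 and 114 CPM against 118, 116 and 143 CPM. The groups came close to each other without overlap, and TAZ-siRNA replicate 3 stood high. At a log2 fold change of 0.27 (SE 0.0884) its adjusted p was 0.0539 in the edgeR test. It passed without control-siRNA replicate 3 (0.0470), TAZ-siRNA replicate 2 (0.0391) or TAZ-siRNA replicate 3 (0.0426), and also with DESeq2 (0.0139) and with limma on log2(FPKM + 1) (0.0486), and its adjusted p over all alternatives ran from 0.00124 to 0.173.

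**Figure D3:**
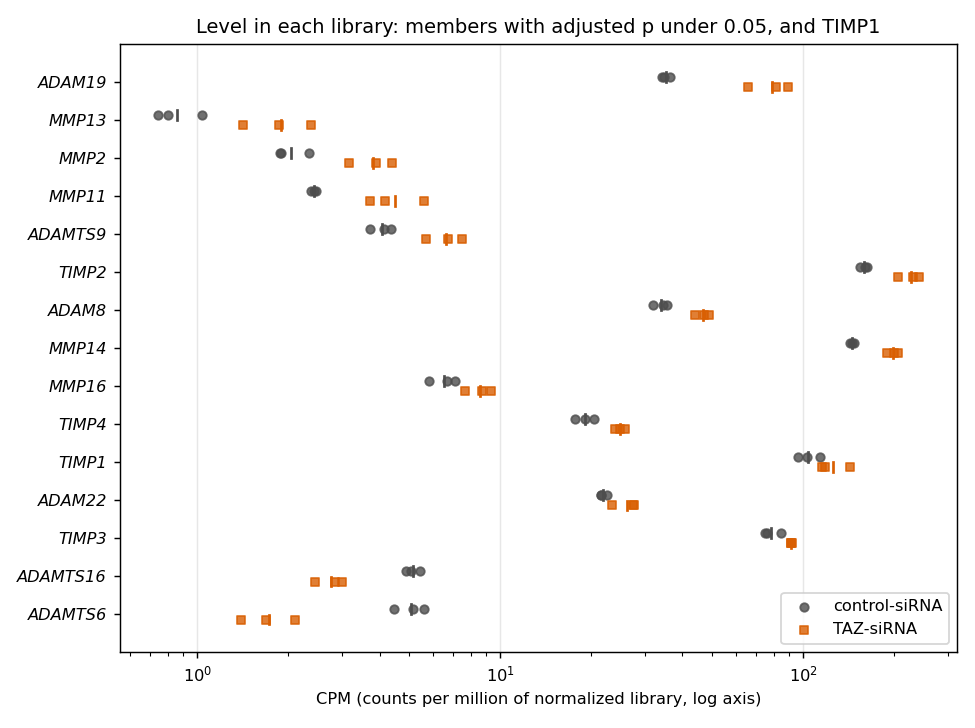
CPM in each library, on a log axis, for the 14 genes with an adjusted p under 0.05 and for TIMP1. Grey circles are control-siRNA and orange squares TAZ-siRNA libraries, ticks are group means, and in each gene the circles and squares do not overlap, with ADAMTS6 and ADAMTS16 the genes whose squares lie to the left.

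Among the membrane-type MMPs, MMP14 and MMP16 rose, out of 5 that could be tested (40%, against 11.9% of all genes). MMP14, the membrane-anchored collagenase that also activates the MMP2 precursor, lies on chromosome 14 from 22836585 to 22847758 (GRCh38). It measured 143, 145 and 147 CPM with control-siRNA and 199.8, 206 and 189.8 CPM with TAZ-siRNA. The spread within each group was small beside the gap between them. The rise on the log2 scale was 0.45 (SE 0.0486, adjusted p = 0.000242 in edgeR's test), or 1.37-fold, and 0.43 to 0.49 with each library left out. MMP16, a close relative of MMP14, measured 6.69, 7.07 and 5.83 CPM against 8.74, 9.31 and 7.68 CPM. The groups did not overlap, although the lowest TAZ-siRNA library lay near the highest control. Its log2 fold change of 0.39 (SE 0.107, adjusted p = 0.0257 in edgeR's test) passed without control-siRNA replicate 2 (0.0466) or TAZ-siRNA replicate 3 (0.00293). The call was lost without control-siRNA replicate 1 (0.0708), control-siRNA replicate 3 (0.101), TAZ-siRNA replicate 1 (0.0902) or TAZ-siRNA replicate 2 (0.0864). MMP15, MMP17 and MMP25 did not pass, at log2 fold changes of 0.17, -0.05 and 0.40, and MMP24, with at most 22 counts in a library, was not tested.

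The secreted MMPs that rose were expressed at low levels. MMP2, the gelatinase that MMP14 activates, measured 1.87, 1.90 and 2.35 CPM with control-siRNA and 3.17, 4.40 and 3.89 CPM with TAZ-siRNA. MMP11, also called stromelysin-3, measured 2.37, 2.47 and 2.43 CPM against 4.16, 5.62 and 3.72 CPM. For both genes every TAZ-siRNA library was above every control, and the TAZ-siRNA libraries scattered more widely. The log2 fold change was 0.90 for MMP2 (SE 0.162, adjusted p = 0.00347 in the edgeR test) and 0.89 for MMP11 (SE 0.160, adjusted p = 0.00356 in the edgeR test). MMP13, a collagenase at chromosome 11 from 102942995 to 102955732, measured 1.03, 0.803 and 0.741 CPM against 1.87, 1.42 and 2.38 CPM. Its lowest TAZ-siRNA library was above its highest control, and the log2 fold change was 1.13 (SE 0.229, adjusted p = 0.00649 in the edgeR test). ADAM19, MMP13 and ADAMTS6 are in the study's own table of changed genes, which was drawn from these libraries, so that listing is not independent evidence. MMP9, the other gelatinase, stayed between 0.0750 and 0.233 CPM in all libraries with overlapping groups and a log2 fold change of 0.39 (SE 0.535, adjusted p = 0.645 in the edgeR test), a size that could not be told from 0 at this depth.

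MMP13 belongs to a row of 9 MMP genes on chromosome 11, from 102520508 to 102955732, and it was the 1 gene of them that passed the test. MMP7, MMP12 and MMP27 had 0 counts in all libraries and MMP8 and MMP20 at most 4, so 4 genes of the row were tested. The 1 that passed is 25% of these, near the 22.1% of all genes. The other 3 are named here after their values were seen. MMP1, the interstitial collagenase, measured 2.10, 2.22 and 2.70 CPM against 1.82, 1.87 and 1.93 CPM. Every TAZ-siRNA library of MMP1 was below every control, opposite to MMP13, but the log2 fold change of -0.31 (SE 0.153) did not pass the edgeR test (adjusted p = 0.169). MMP3, a stromelysin, had 36, 62 and 44 counts with control-siRNA and 20, 0 and 25 with TAZ-siRNA. The groups did not overlap, and the log2 fold change of -1.70 (SE 0.667, adjusted p = 0.105 in edgeR's test) passed only with limma on log2(FPKM + 1) among the alternatives (0.0273, against 0.055 to 0.318 in the others). MMP10, the neighbouring stromelysin, overlapped between the groups, at 0.386 to 0.988 CPM against 0.264 to 0.680 CPM (log2 fold change -0.55, adjusted p = 0.419 in edgeR's test). Its value rested on single libraries, at -1.08 without TAZ-siRNA replicate 3 (adjusted p = 0.0714 in edgeR's test) and -0.07 without control-siRNA replicate 3.

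Of the 12 ADAM genes tested, 3 passed (25%, near the 22.1% of all genes), each higher with TAZ-siRNA. ADAM19, a membrane protease known to release neuregulin, lies on chromosome 5 from 157477304 to 157575775 and had the largest rise of the genes that passed. It measured 34.9, 36.5 and 34.2 CPM with control-siRNA and 81.2, 89.2 and 66.1 CPM with TAZ-siRNA. The controls were nearly equal, and the lowest TAZ-siRNA library, replicate 3, was still far above them. The fitted rise was 1.16 on the log2 scale (SE 0.0961, adjusted p = 0.000106 in edgeR's test), or 2.24-fold, and between 1.07 and 1.28 with each library left out. A stretch of 62 exonic bases of ADAM19 overlaps CYFIP2 on the opposite strand (GENCODE annotation of GRCh38), whose own level was 5.74 and 6.97 CPM in the groups. Whether the counting used strand is not given in the sources used here, so reads there cannot be assigned with certainty. ADAM8, a protease first known from leukocytes, measured 31.9, 34.5 and 35.7 CPM against 44, 48.9 and 47.2 CPM. Its groups were well separated, with a log2 fold change of 0.46 (SE 0.0640, adjusted p = 0.00094 in edgeR's test). ADAM22, which has no protease activity and serves as a receptor, measured 22.5, 21.5 and 21.6 CPM against 27.5, 27.7 and 23.4 CPM. Replicate 3 of TAZ-siRNA lay just above the controls while the other replicates stood higher. The log2 fold change of 0.26 (SE 0.0740, adjusted p = 0.0287 in edgeR's test) passed without TAZ-siRNA replicate 3 (0.000368). The ADAM22 call was lost without control-siRNA replicate 1 (0.0707), 2 (0.112) or 3 (0.0944) and without TAZ-siRNA replicate 1 (0.12) or 2 (0.0882), and limma on log2(FPKM + 1) gave 0.190 and on log2(FPKM + 0.1) 0.193.

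The main surface sheddases did not pass. ADAM10, which starts the cleavage of Notch and of the amyloid precursor, measured 214, 209 and 198 CPM against 235, 222 and 202 CPM. The groups overlapped, and the log2 fold change was 0.09 (SE 0.0622, adjusted p = 0.359 in the edgeR test), with a call only without TAZ-siRNA replicate 3 (0.0309). ADAM17, the enzyme that releases tumour necrosis factor, measured 136, 139.6 and 136 CPM against 132, 119 and 143 CPM, with a log2 fold change of -0.06 (SE 0.0632, adjusted p = 0.510 in the edgeR test). ADAM17 shares 1645 exonic bases with IAH1 on the other strand, which stood at 28.8 and 29.0 CPM. ADAM9, the most abundant protease gene in TPM, measured 256, 254 and 242 CPM against 248, 243 and 239 CPM, with overlap and a log2 fold change of -0.04 (SE 0.0495, adjusted p = 0.573 in the edgeR test). ADAM15 measured 113, 114 and 115 CPM against 119.9, 121 and 126 CPM, so its groups did not overlap although the log2 fold change of 0.10 (SE 0.0438) did not pass the edgeR test (adjusted p = 0.128). For these 4 genes, a p that missed the threshold does not show equal levels, but their standard errors were among the smallest of the 47.

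Of the 14 ADAMTS genes tested, 1 rose and 2 fell, a share of 21.4% that lies near the 22.1% of all genes. ADAMTS6, a secreted protease closely related to ADAMTS10, lies on chromosome 5 from 65148736 to 65482663. It measured 5.59, 5.14 and 4.47 CPM with control-siRNA and 1.69, 2.11 and 1.40 CPM with TAZ-siRNA. The groups were widely separated. The log2 fold change came to -1.56 (SE 0.163, adjusted p = 0.000216 in edgeR's test), leaving 34.1% of the control level, and it ran from -1.71 to -1.43 with each library left out. ADAMTS10 had 0 counts in every library. ADAMTS16, on chromosome 5 from 5140330 to 5320304, measured 5.44, 5.08 and 4.90 CPM against 2.85, 2.45 and 3.01 CPM. Every TAZ-siRNA library was far below every control, with a log2 fold change of -0.89 (SE 0.12, adjusted p = 0.000777 in edgeR's test), or 53.9% of control. ADAMTS9, which cuts the proteoglycans versican and aggrecan, measured 4.36, 3.73 and 4.14 CPM against 6.75, 7.48 and 5.69 CPM. It moved opposite to ADAMTS6 and ADAMTS16, with no overlap and a log2 fold change of 0.70 (SE 0.124, adjusted p = 0.00318 in edgeR's test). Of the proteoglycan-cutting genes it was the 1 that passed among 5 tested (20%, near the 22.1% of all genes). ADAMTS1 (log2 fold change -0.68), ADAMTS4 (0.33), ADAMTS15 (0.23) and ADAMTS20 (-0.40) did not pass, although without TAZ-siRNA replicate 3 ADAMTS1 (-1.25, adjusted p = 0.0115 in edgeR's test) and ADAMTS15 (0.34, adjusted p = 0.0448) did. ADAMTS1 ran from -1.25 to -0.39 when single libraries were left out, the last without control-siRNA replicate 3. The procollagen-processing genes ADAMTS3 (0.43, adjusted p = 0.0814 in edgeR's test, and 0.0212 without TAZ-siRNA replicate 3) and ADAMTS14 (0.40) did not pass, and ADAMTS2 was not tested. None of the 3 ADAMTSL genes tested passed in edgeR, DESeq2 or limma, and 1 had an unadjusted p under 0.05 in edgeR. ADAMTSL3 stood at 0.23, ADAMTSL5 at -0.13 and ADAMTSL4 at -0.54 (adjusted p = 0.0635 in edgeR's test, and 0.0424 without TAZ-siRNA replicate 1).

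The deposited transcript table assigned much of the signal of some of these genes to transcripts that RefSeq lists as non-coding. For ADAMTS6 they carried 95.6, 95.1 and 96.9% of the gene's TPM with control-siRNA, and with TAZ-siRNA 82.4, 92.7 and 86.6%. ADAMTS9 (76.5% or more in each library) and ADAMTS16 (63.2% or more) were similar, so the fall of ADAMTS6 and ADAMTS16 and the rise of ADAMTS9 were measured mostly on RNA assigned to non-coding transcripts. For ADAM9 the share was 62.2, 54.5 and 39.4% with control-siRNA and 66.5, 62.7 and 62.7% with TAZ-siRNA. Its main coding transcript, variant 1, measured 50.6, 60.6 and 67.0 TPM with control-siRNA and 31.9, 44.4 and 30.9 TPM with TAZ-siRNA. A second coding transcript had a higher mean with TAZ-siRNA but overlapped, at 1.12, 0.830 and 8.41 TPM with control-siRNA and 14.4, 6.71 and 15.5 TPM with TAZ-siRNA. Summed over coding transcripts, ADAM9 stood at 51.8, 61.5 and 75.5 TPM against 46.9, 51.1 and 46.4 TPM, so the groups nearly met, and the gene as a whole overlapped. In contrast, ADAM19 had 96.4 to 99.5% of its TPM on 1 coding transcript, and TIMP2, TIMP3, TIMP4, MMP13 and MMP14 have 1 transcript each in the table. Transcript values are estimates from reads that transcripts of a gene share, and no test was made on them.

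**Figure D4:**
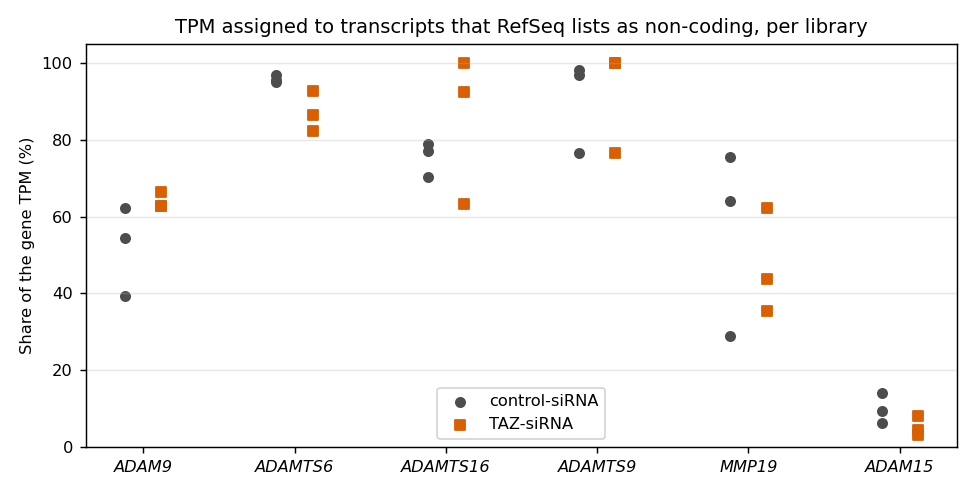
Share of each gene's TPM, in percent, assigned to transcripts that RefSeq lists as non-coding, in each control-siRNA (grey circle) and TAZ-siRNA (orange square) library. ADAMTS6, ADAMTS9 and ADAMTS16 lie above 60% throughout, ADAM15 lies at 3.15 to 14.0%, and the 3 TAZ-siRNA libraries of ADAM9 lie above the highest control.

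Not every gene could speak to the question. Of the 71 genes, 24 were not tested because their counts were too low: 10 had 0 counts in all libraries (ADAM2, ADAM7, ADAM18, ADAM30, ADAM33, ADAMTS10, MMP7, MMP12, MMP26 and MMP27), which allows at most 0.0618 CPM in a library at the floor of 3 counts, and 14 had at most 22 counts in a library. Among the tested genes, 19 had a mean below 1 TPM and 0 of them passed in edgeR (standard errors 0.147 to 0.667), against 7.42% of all genes tested below 1 TPM. At 1 TPM or more, 14 of 28 passed (50%, standard errors 0.0438 to 0.229), against 3513 of 13785 genes (25.5%). The mean is over both groups, so MMP13 (0.563 to 0.828 TPM with control-siRNA) reached 1 TPM only through its TAZ-siRNA libraries. ADAMTS6 reached it only through its control libraries. The split at 1 TPM thus depends in part on the changes themselves. At an unadjusted p under 0.05 in edgeR, 4 of the 19 passed (ADAMTS3, ADAMTS13, ADAMTSL4 and MMP3), as did 0 with DESeq2 and 1 with limma on log2(FPKM + 1) after adjustment. The largest of these standard errors was that of MMP3, with 0 counts in 1 library, and was 0.370 without that library, TAZ-siRNA replicate 2.

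Genes that work with these enzymes were looked at in 4 lists, chosen with results of these data known. Of 55 genes, 44 were tested and 22 passed (50%, against 22.1% of all genes), 16 higher and 6 lower with TAZ-siRNA, and without control-siRNA replicate 3 the count was 14. Genes that activate, carry or fold metalloproteinases had 7 of 16 past the test, all of them higher (43.8%, against 11.9% of all genes). FURIN, the protease that removes the inhibitory part of MMP14 and many ADAM precursors, measured 73.7, 71.5 and 76.6 CPM with control-siRNA and 97.5, 100.2 and 91.6 CPM with TAZ-siRNA. Its groups did not overlap, and the log2 fold change was 0.38 (SE 0.0519, adjusted p = 0.000781 in edgeR's test). TSPAN14, a tetraspanin that escorts ADAM10 to the surface, measured 31.9, 30.2 and 29.4 CPM against 46.5, 50.7 and 36.0 CPM, also without overlap (log2 fold change 0.54, SE 0.109, adjusted p = 0.00723 in edgeR's test). The other 5 passed less firmly. PCSK5, a convertase like FURIN (0.38, adjusted p = 0.0228 in edgeR's test), B3GLCT, which adds glucose to the repeats of ADAMTS proteins (0.38, adjusted p = 0.0287), and RHBDF1, a carrier of ADAM17 (0.20, adjusted p = 0.0441), passed in 1 of the 6 fits with a library removed, the one without TAZ-siRNA replicate 3 (0.00217, 0.00012 and 0.0428). FRMD8, which stabilizes that carrier (0.36, adjusted p = 0.0151 in edgeR's test), lost its call without control-siRNA replicate 3 (0.0709), TAZ-siRNA replicate 1 (0.0660) or 2 (0.0535). TSPAN15, another escort of ADAM10 (0.30, adjusted p = 0.0106 in edgeR's test), lost it without control-siRNA replicate 1 (0.0582). PCSK5 and B3GLCT did not pass with limma at either pseudocount (0.0854 to 0.0954).

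In the list of other inhibitors and clearance genes, 3 of 4 were tested. Of these, 1 was higher (33.3%, against 11.9% of all genes) and 1 lower (33.3%, against 10.2%). LRP1 did not pass, at a log2 fold change of 0.11 (adjusted p = 0.41 in edgeR's test). RECK, a membrane-anchored inhibitor of MMPs, measured 12.3, 12.3 and 11.1 CPM against 15.8, 19.0 and 14.0 CPM, with a log2 fold change of 0.45 (adjusted p = 0.0137 in edgeR's test) that did not pass without control-siRNA replicate 3 (0.0623) or with limma on log2(FPKM + 1) (0.0837), the highest of its alternatives, the lowest being 0.000253 without TAZ-siRNA replicate 3. TFPI2, a secreted protease inhibitor of the matrix, measured 138, 149.6 and 147 CPM against 94.1, 86.6 and 104 CPM. Every TAZ-siRNA library of TFPI2 was below every control, with a log2 fold change of -0.61 (SE 0.0661, adjusted p = 0.000247 in edgeR's test).

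Proteins that ADAM10 and ADAM17 release from the surface had 5 of 18 genes higher (27.8%, against 11.9% of all genes). In the same list 3 were lower (16.7%, against 10.2%). The epidermal growth factor receptor ligand TGFA measured 96.2, 98.0 and 101 CPM against 137, 139 and 126 CPM (log2 fold change 0.44, adjusted p = 0.000335 in edgeR's test), and its relative EREG measured 202, 205 and 189 CPM against 285, 226 and 282 CPM (0.41, adjusted p = 0.00686). Neither overlapped between the groups. The junction protein F11R (0.41, adjusted p = 0.000562 in edgeR's test) and the syndecan SDC1 (0.38, adjusted p = 0.00475) also rose. VCAM1, an adhesion molecule for leukocytes, had 23, 13 and 14 counts with control-siRNA and 0, 2 and 0 with TAZ-siRNA (adjusted p = 0.00383 in edgeR's test), near the floor of 3 counts. Beyond the rule for naming, ICAM1 (-0.35, adjusted p = 0.00262 in edgeR's test) passed as well, as did the natural killer cell ligands MICA (0.22, adjusted p = 0.0211) and MICB (-0.19, adjusted p = 0.0292). The call of MICA was lost without any 1 control library or without TAZ-siRNA replicate 2 (0.0610 to 0.0901), and that of MICB in every fit but the one without TAZ-siRNA replicate 3 (0.0270).

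Among 15 substrates and partners of ADAMTS proteins, 8 were not tested. Of the 7 tested, 3 were higher (42.9%, against 11.9% of all genes) and 2 lower (28.6%, against 10.2%). CCBE1, which works with ADAMTS3 in the processing of VEGFC, measured 11.3, 9.85 and 9.58 CPM against 5.31, 6.14 and 3.83 CPM. Its groups were well apart, with a log2 fold change of -1.01 (SE 0.15, adjusted p = 0.00141 in edgeR's test), whereas VEGFC (0.13) did not pass. RELN, a matrix protein that ADAMTS enzymes cut, also fell, with 0.70 to 0.885 CPM in the controls and 0.274 to 0.394 CPM after TAZ-siRNA (-1.25, adjusted p = 0.00841 in edgeR's test), a call absent with limma on log2(FPKM + 1) (0.265) and on log2(FPKM + 0.1) (0.136), with 0.0459 the highest value when a library was left out. Higher were LTBP1, a matrix protein that stores latent TGF-β (0.42, adjusted p = 0.000669 in edgeR's test), the collagen gene COL1A1 (0.42, adjusted p = 0.00703), which is also the fibroblast marker given above, and FBN1, the gene of fibrillin-1 (0.37, adjusted p = 0.0266). The call of FBN1 was lost without control-siRNA replicate 2 (0.0726) or 3 (0.0953) and without TAZ-siRNA replicate 1 (0.0971) or 2 (0.0641), and with limma at either pseudocount (0.0659 and 0.0722).

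**Figure D5:**
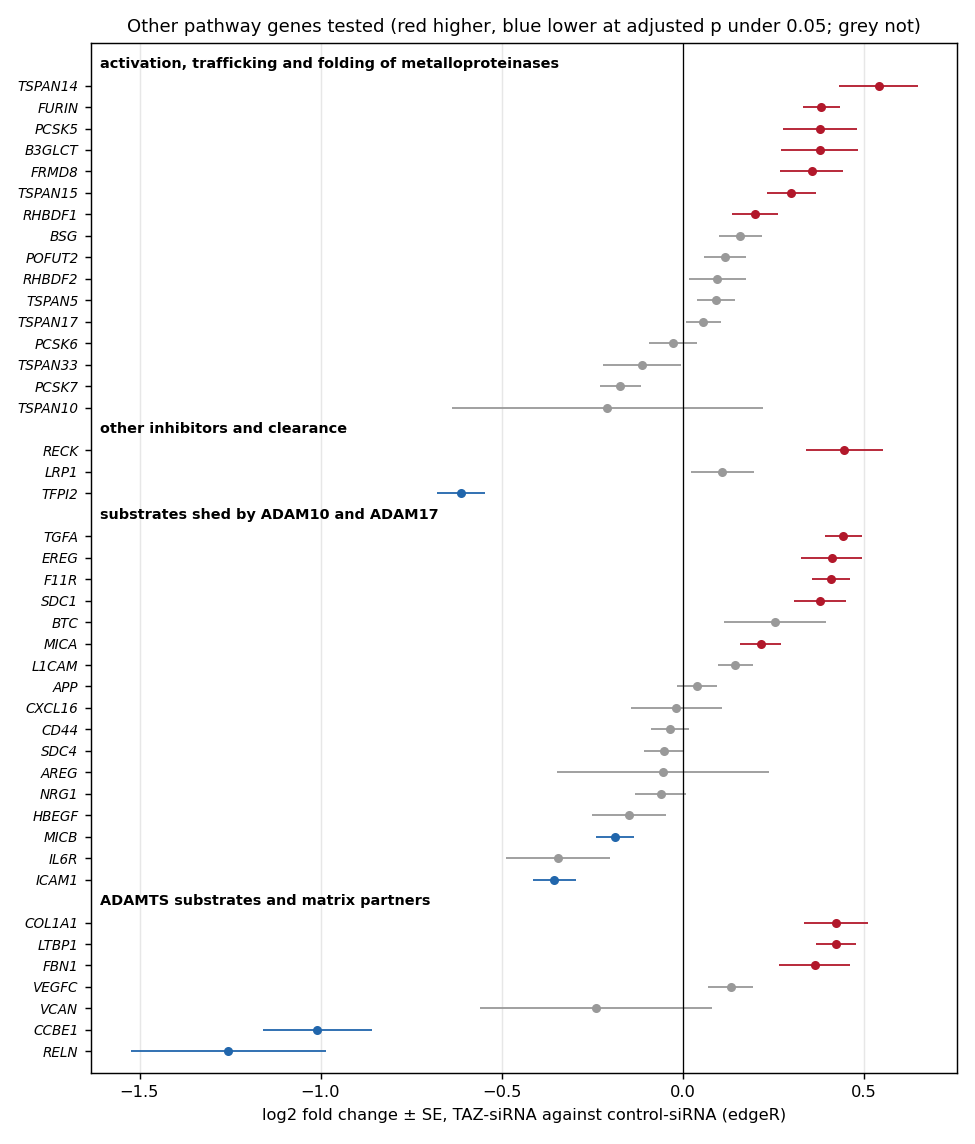
Log2 fold change with TAZ-siRNA against control-siRNA, with bars for the standard error of the edgeR fit, for 43 of the 44 other genes tested, in their 4 lists; VCAM1, near the floor of counts, is not drawn. Red points rose and blue points fell at an adjusted p under 0.05: the activation list holds 7 red points, and CCBE1 and RELN lie farthest to the left.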

How the data were processed

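Gene expression was measured by RNA-seq in 6 libraries of MDA-MB-231 cells, which were grouped by their labels. Reads were trimmed by the authors and aligned to GRCh38 by HISAT2, and StringTie gave the level of each RefSeq gene and transcript (versions not given in the sources used here). The submitters' processing notes also list Bowtie 0.12.2 and the build mm8, with no role. The deposited estimated count of each gene is a whole number, so none was rounded. FPKM, as deposited, are per length of transcript and size of library, and TPM, as deposited, are per length and share 1 total in every library. No column lacked a sample (0 columns). Titles number the replicates differently from the columns, whose numbers are used.

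Counts were compared with edgeR 4.0.16 in R 4.3.3 (TMM factors, robust quasi-likelihood test) for the 16966 genes that filterByExpr kept at a minimum count of 10. Adjustment over these genes was by Benjamini-Hochberg, with a threshold of 0.05. CPM use the TMM library sizes. Exact permutation tests of CPM were 2-sided. Counts of replicates differed by more than sampling noise for every pair of a group (chi-square 6.79 to 41.0 per degree of freedom). Alternatives were DESeq2 1.42.0, upper-quartile factors, 2 other filters, the replicate number as a block, limma 3.58.1 on log2(FPKM + pseudocount) with a pseudocount of 1 or 0.1, a threshold of 0.01, and leaving out each library. Gene coordinates come from the deposited transcript table, overlaps of exons from GENCODE and promoter windows from RefSeq (GRCh38.p14). Amino acid sequences were not used here.

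The genes named are WWTR1, members past the threshold, the 10 members highest in TPM, all TIMP genes, the members in the study's table of changed genes, and up to 5 genes per list with the largest changes past the threshold. Other genes were named after their values were seen. The members and the lists were chosen with earlier results of these data known.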

Additional observations from a re-analysis of the deposited data

How the results depend on the processing

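The count of 14 MMP, ADAM, ADAMTS and TIMP genes past the threshold became 15 with DESeq2 and 14 with upper-quartile factors. Of all genes, 23.8% and 22% passed in these settings, against 22.1% before. The count was 14 of 61 without a filter on low counts (12.6% of all genes). At 10 or more counts in every library it was 15 of 40 (24.6%). It was 15 and 14 with limma at a pseudocount of 1 and 0.1 (16.6% and 16.7%), and 11 at an adjusted p under 0.01 (10.1%). Leaving out single libraries gave 12 to 19 of 47 to 49 genes tested, with 9 to 16 higher and 2 to 3 lower. The 19 came without TAZ-siRNA replicate 3. In none of these settings did any of the 14 change sign. The other pathway genes past the threshold fell from 22 to 13 at an adjusted p under 0.01, and leaving out single libraries gave 14 (control-siRNA replicate 3 left out) up to 31 (TAZ-siRNA replicate 3 left out). Over all genes the count of 3749 became 1720 at the stricter threshold. Leaving out control-siRNA replicate 2 gave 1937 (11.2%) and leaving out TAZ-siRNA replicate 3 gave 5928 (33.7%). It was 2262 (13.1%) and 2115 (12.1%) without control-siRNA replicates 1 and 3. Without TAZ-siRNA replicates 1 and 2 it was 2046 (11.9%) and 2687 (15.3%). The log2 fold change of ADAM17 reversed from -0.06 to 0.0052 without TAZ-siRNA replicate 2, and was lowest, at -0.12, without TAZ-siRNA replicate 3. The cause of these changes was not tested. The 10 genes highest in TPM were also the 10 highest in FPKM.

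The replicate numbers were not taken to pair the samples. Deviations of same-numbered libraries correlated at 0.113, 0.0475 and 0.319 over 13591 genes. Replicates 1 and 2 of each group did not correlate best with their own number. Replicate 3 did, and its correlations with libraries of the other group under other numbers ran from -0.267 to -0.156. The source of this shared deviation was not tested. With the replicate number as a block, 16 of the 47 genes passed, as did 25 other pathway genes and 5122 genes in all (30.2%); TIMP1 (0.00124) and ADAMTS3 (0.0484) were the genes added.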
